A study of Mus musculus with 12 samples.

Results

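The sorted granular fraction of mouse back skin epidermis, labelled GL, was compared with the sorted spinous cells that had lost a histone label, labelled SL non-LRC. The members are the 2 samples whose titles carry GL and the 2 whose titles carry SL non-LRCs, 4 of the 12 arrays in the series. GL and SL are read as granular and spinous layer, and LRC as label-retaining cell, from what is known of the study, since the labels give the abbreviations alone. All samples, GL and SL non-LRC alike, came from mice with 4 transgenes: K5-tTA, in which a keratin 5 promoter drives the tetracycline transactivator, pTRE-H2B-GFP, a histone label under its control, K14-CreER, a tamoxifen-activated recombinase under a keratin 14 promoter, and Rosa-tdTomato, a reporter that the recombinase switches on. Every mouse ate doxycycline at 1 g per kg of food for 2 weeks, which shuts off the histone label, received 1 dose of tamoxifen at 75 mg per kg, and was killed 1 week later at the second telogen, the resting phase of the hair cycle. The labels give neither the age and sex of the animals, nor the sorting gates, nor whether samples of a group came from separate animals, so a p-value here reflects the scatter among these arrays, which may be technical.

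The epidermis is fed by basal keratinocytes that divide while held to the basement membrane by integrins and hemidesmosomes. Their daughters detach, move up through the spinous layers, where desmosomes and the keratins Krt1 and Krt10 dominate, and reach the granular layer, where loricrin, filaggrin, proteases and lipid enzymes assemble the cornified barrier. Mouse epidermis also houses Langerhans cells, which are antigen-presenting cells, and dendritic epidermal T cells, which carry a gamma-delta receptor, as well as melanocytes and hair follicle keratinocytes.

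A gene was called when its limma p-value, adjusted by the Benjamini-Hochberg method over 18193 genes, was under 0.05, and differences are GL minus SL non-LRC on the log2 intensity scale with moderated standard errors (SE, 2 arrays a side). By this rule 875 genes were called (4.81% of those tested), 360 higher in GL (1.98%) and 515 lower (2.83%), while the median over all genes was -0.02. Every count of calls on a list below is to be read beside these shares. The values of the 2 fractions did not overlap for 8716 genes (47.9%), so a lack of overlap is common here. With each array centred on its median the split was 299 higher and 679 lower. The bacterial spike-in BioB, added to each hybridisation, averaged 3330 and 2885 intensity units on the GL arrays but 473 and 524 on the SL non-LRC arrays, so fraction and array set coincide here. The low set holds BL LRC 1, BL non-LRC 1 and both SL non-LRC arrays (BL is read as basal layer), and the high set holds the other 8. A set term could be estimated through the BL samples alone, whose low-set arrays also lack signal of the Y-linked gene Kdm5d (log2 0.19 and 1.41, against 9.38 to 10.29 on the 4 arrays compared here). Besides the array set, the term may thus carry whatever goes with this lack, which was not tested. With that term 367 genes were called (2.02%), 155 higher (0.852%) and 212 lower (1.17%), 305 of them shared with the 875, and all 875 kept their sign. Of the 875 calls, 176 held in each of the 4 fits that left out 1 array of the comparison, and 254 were lost in every such fit. The median size of the 875 differences went from 1.66 to 1.57 log2 units, and their median SE from 0.33 to 0.40. The share of genes above the array's background floor was 76.8% and 78.4% in GL and 73.0% and 77.8% in SL non-LRC. The 3' minus 5' difference of Actb, a measure of RNA integrity, averaged -0.060 and -0.067 in that order. The same difference for Gapdh was 1.22 on GL 1, the highest of the 12 arrays, 0.68 on GL 2, and 0.84 and 1.02 on the SL non-LRC arrays. Its part in the differences was not tested. Of the 102 called genes named here, 56 lost the call without the mean-variance trend and 21 when the probe sets of a gene were averaged.

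**Figure D1:**
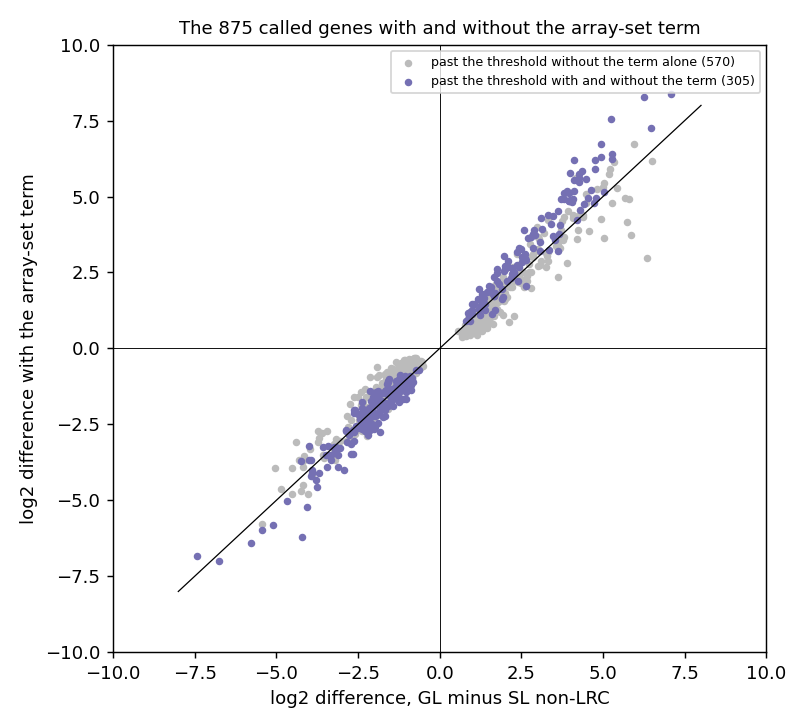
Each point is 1 of the 875 called genes, with the log2 difference between GL and SL non-LRC on the horizontal axis and the same difference from the model with the array-set term on the vertical axis; the diagonal marks equal values. The points lie along the diagonal without a change of sign, and 305 genes (violet) also passed the threshold with the term.

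Genes of T cells and of antigen-presenting cells stood far higher in GL than in SL non-LRC. Of 16 measured members of the T cell list, 9 were higher and 0 lower (median difference 3.68), and of 19 of the Langerhans and myeloid list 10 were higher and 0 lower (median 2.87, all 19 above 0), beside 1.98% of all genes. With the array-set term the counts were 9 and 8, and without the mean-variance trend 6 and 2. Cd3g, a chain of the T cell receptor complex, measured log2 13.10 and 11.73 on the GL arrays and 8.70 and 7.52 on the SL non-LRC arrays. The fractions did not overlap, as for 47.9% of all genes, and the difference of 4.30 ± 0.46 passed the limma test (adjusted p = 4.74e-05). Cd3e, another chain of that complex, measured 12.73 and 10.89 in GL against 8.71 and 7.27, a difference of 3.82 ± 0.63 (adjusted p = 0.0019, but 0.0548 without GL 1). Il2rb, a receptor subunit for interleukins of lymphocytes, measured 11.25 and 9.33 in GL, while SL non-LRC stood at 4.71 and 5.33, above the floor on 1 array only (adjusted p = 0.000652). Nkg7, of cytotoxic granules, differed by 4.64 ± 0.71 (adjusted p = 0.00102). The coreceptors Cd4 and Cd8a gave no call: Cd4 measured 4.51 and 4.39 in GL against 6.06 and 4.08, and Cd8a 5.72 and 5.73 against 6.25 and 6.53 (adjusted p = 0.79 and 0.738), and the sign for Cd8a turned when its probe sets were averaged.

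Among genes of antigen presentation, Cd74, the invariant chain of class II molecules, measured log2 14.49 and 13.57 in GL and 11.84 and 10.62 in SL non-LRC, a difference of 2.80 ± 0.51 (adjusted p = 0.00405). H2-Aa, a class II chain, differed by 3.06 ± 0.51 (adjusted p = 0.00189). Both lost the call when GL 1 was left out (adjusted p = 0.0813 for Cd74 and 0.0524 for H2-Aa), and Cd74 also without SL non-LRC 2 (0.0867). Fcer1g, a signalling chain of Fc receptors, measured 12.54 and 11.20 in GL against 7.07 and 7.60, and its difference of 4.53 ± 0.53 (adjusted p = 0.000101) held in each fit that left out 1 array (highest adjusted p = 0.00457). Cd207, the langerin that defines Langerhans cells, measured 9.96 and 8.65 in GL and 3.41 and 4.71 in SL non-LRC, where 1 of 2 arrays exceeded the floor (adjusted p = 0.0279, lost in each of the 4 fits without 1 array, at 0.0732 to 0.219). Cd207 was at or near background on most of the other fractions too, as the plot of immune genes shows. Vim, an intermediate filament of non-epithelial cells, differed by 3.48 ± 0.50 (adjusted p = 0.000639), the single called member of 15 on the fibroblast list, whose collagens Col1a1 (6.85 and 6.53 against 5.64 and 6.13) and Col3a1 (3.32 and 6.44 against 2.86 and 1.25) did not pass.

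The summed intensity of the T cell list was 41325 and 13007 units on GL 1 and GL 2 against 6029 and 3699 on the SL non-LRC arrays, and that of the Langerhans and myeloid list was 92822 and 47782 against 21982 and 13840. GL 1 thus carried more of both than GL 2. On the SL LRC arrays, which share the high BioB set with GL, the T cell sum was 3795 and 3864 and the myeloid sum 6443 and 7780. Without GL 1 the higher calls numbered 3 on the T cell list and 1 on the myeloid list, and without SL non-LRC 2 they numbered 6 and 2. Dct, a melanin enzyme of melanocytes, was the 1 called member of 12 on that list, at 9.87 and 10.45 in GL against 7.78 and 7.70 (2.42 ± 0.58, adjusted p = 0.0223), while Tyrp1 (0.97 ± 1.22) and Pmel (0.61 ± 0.44) did not pass. Dct lost its call in all 4 fits that left out 1 array (adjusted p = 0.0866 to 0.167). Of 13 endothelial and blood genes limma called 0, with 0 at an unadjusted p under 0.05, and Pecam1 measured 4.20 and 5.64 in GL against 3.78 and 4.53. A haemoglobin probe set outside this count, since it matches more than 1 gene, was called higher in GL, at 6.78 and 8.28 against 3.68 and 4.43 (3.47 ± 0.91, limma adjusted p = 0.0489 over 45037 probe sets). In bulk samples more cells of a type and more RNA per cell cannot be told apart. The part that these cells' RNA has in the other differences given here was not tested.

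**Figure D2:**
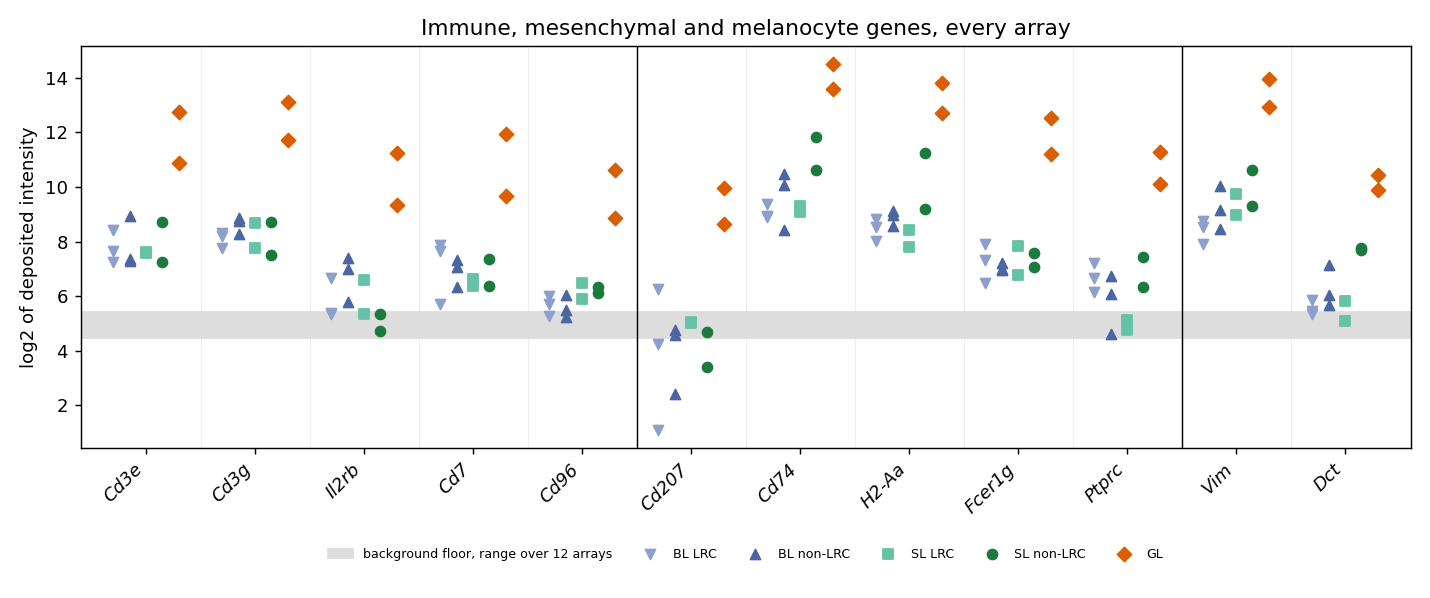
Log2 intensity of 5 T cell genes (left), 5 Langerhans and myeloid genes (middle), Vim and Dct (right) on all 12 arrays, by fraction, with the range of the arrays' background floors in grey. Both GL arrays (orange) lie above every other array for each gene shown, GL 1 above GL 2 for all but Dct.

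Genes of DNA replication and mitosis were lower in GL than in SL non-LRC. Of 34 measured replication genes 15 were lower and 0 higher (median -1.07, 32 below 0), and of 34 mitosis genes 14 were lower and 0 higher (median -1.56, 33 below 0), beside 2.83% of all genes. With the array-set term 9 and 11 were lower, without the mean-variance trend 8 and 9, with the 4 arrays alone 9 and 10, and with averaged probe sets 12 and 9. Cdt1, which loads the replicative helicase, measured log2 8.10 and 8.28 in GL and 10.64 and 10.83 in SL non-LRC. The arrays of each fraction lay within 0.2 log2 units of each other, and the difference of -2.55 ± 0.23 (limma adjusted p = 9.25e-06) was -2.56 ± 0.30 with the array-set term (adjusted p = 0.000309). With the probe sets of Cdt1 averaged it was -1.60 and lost the call (adjusted p = 0.0684). The helicase subunits Mcm3 (-2.13 ± 0.21), Mcm5 (-2.03 ± 0.23) and Mcm6 (-1.60 ± 0.24) and the helicase partner Gins2 (-2.64 ± 0.32) were lower as well, and each stayed called with the term and in every fit without 1 array. Mcm6 did not stay called with averaged probe sets (-0.22, adjusted p = 0.863), where a probe set above the floor on 3 arrays gave 2.10 ± 1.29. Mcm4 and Mcm7 were called without the term alone (adjusted p = 0.0578 and 0.123 with it), and a dimmer probe set of Mcm7 gave 0.66 ± 0.37 without a call. Dut, which keeps uracil out of DNA, fell by 1.97 ± 0.32 (adjusted p = 0.00153).

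Mki67, the proliferation marker, measured log2 10.56 and 9.76 in GL against 11.99 and 11.87 in SL non-LRC, a difference of -1.77 ± 0.25 (adjusted p = 0.00064, and 0.0126 with the array-set term). Against SL LRC, at 9.95 and 9.73, the GL values of Mki67 were 0.32 ± 0.25 higher on average. Cdc20, which switches on the anaphase ligase, stood at 6.72 and 7.17 in GL, 8.83 and 9.21 in SL non-LRC and 6.66 and 7.01 in SL LRC. Its difference of -2.08 ± 0.39 (adjusted p = 0.00452) lost the call without GL 1 (0.0553) or SL non-LRC 2 (0.0726), and with averaged probe sets (-1.11, adjusted p = 0.0784). Cenpf, a kinetochore protein, differed by -3.56 ± 0.58 (adjusted p = 0.00179) and Anln, of the cleavage furrow, by -2.38 ± 0.37 (adjusted p = 0.00127). Dimmer probe sets of Cenpf gave -1.90 ± 0.51 and -0.34 ± 0.91 without a call, the latter above the floor on 1 array. With its probe sets averaged Cenpf differed by -1.93 and stayed called (adjusted p = 0.033). Cdk1, the mitotic kinase, differed by -2.10 ± 0.51 (adjusted p = 0.0246) and Ube2c, a ubiquitin enzyme of anaphase, by -1.07 ± 0.28 (adjusted p = 0.0375), and neither stayed called with the array-set term (0.105 and 0.0895). Cdk1 also lost the call with the 4 arrays alone (adjusted p = 0.0898). In fits without 1 array Cdk1 mostly lost the call, at -1.38 to -2.82, and Ube2c lost it throughout, at -0.99 to -1.14. The median of the mitosis list was 0.10 for GL minus SL LRC, beside -1.56 for GL minus SL non-LRC, 2 comparisons that share the GL arrays. The summed mitosis signal was 7193 and 5545 units in GL, 17597 and 17452 in SL non-LRC and 9265 and 7105 in SL LRC. For the replication list the median was -0.40 for GL minus SL LRC, beside -1.07 for GL minus SL non-LRC. The summed replication signal was 16545 and 14236 units in GL, 32270 and 34860 in SL non-LRC and 19505 and 19262 in SL LRC. With 1 array left out, the lower calls numbered 6 without GL 1, 7 without GL 2, 8 without SL non-LRC 1 and 4 without SL non-LRC 2 for mitosis, and 13, 10, 10 and 9 for replication.

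Promoters of these genes are shown because members of each list moved together; they come from RefSeq, build GRCm38.p6, and were matched by symbol for 28 of the 34 mitosis and 28 of the 34 replication genes. Each line gives the 120 bases before the gene's start, 5′ to 3′ on the gene's strand, with motif letters in capitals. The genes shown were picked from the named ones with a match in these bases. For mitosis genes the motif is TTTGAA, the cell cycle genes homology region, read on both strands, so that a match on the other strand prints as TTCAAA.
Cdc20: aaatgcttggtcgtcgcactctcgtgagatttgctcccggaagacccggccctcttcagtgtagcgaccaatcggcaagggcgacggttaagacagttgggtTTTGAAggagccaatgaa
Cdk1: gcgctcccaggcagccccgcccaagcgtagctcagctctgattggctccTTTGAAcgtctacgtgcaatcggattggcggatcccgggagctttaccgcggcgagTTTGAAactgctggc
Ube2c: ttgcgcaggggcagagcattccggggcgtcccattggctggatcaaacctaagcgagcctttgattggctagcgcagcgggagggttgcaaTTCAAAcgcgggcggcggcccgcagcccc
Mki67: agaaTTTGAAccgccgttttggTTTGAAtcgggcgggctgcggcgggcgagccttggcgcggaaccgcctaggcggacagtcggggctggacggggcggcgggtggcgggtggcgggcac
The windows lie at chr4:118437344-118437463 (Cdc20, minus strand), chr10:69352913-69353032 (Cdk1, minus), chr2:164769809-164769928 (Ube2c, plus) and chr7:135716380-135716499 (Mki67, minus). The match began 18 bases before the start in Cdc20, 29 in Ube2c, 71 and 15 in Cdk1, and 116 and 98 in Mki67. Over the full window from 250 bases before to 50 after the start, the motif was found in 22 of the 28 mitosis genes, 4 of the 28 replication genes and 15.7% of all 14452 genes with a promoter in the table.

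For replication genes the letters searched were TTCCCGC and TTGGCGC, 2 forms of the site of E2F factors, which govern entry into S phase, again on both strands, where a reverse match of the first prints as GCGGGAA.
Rrm1: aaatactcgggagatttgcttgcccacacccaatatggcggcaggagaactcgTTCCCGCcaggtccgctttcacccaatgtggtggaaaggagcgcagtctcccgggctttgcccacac
Uhrf1: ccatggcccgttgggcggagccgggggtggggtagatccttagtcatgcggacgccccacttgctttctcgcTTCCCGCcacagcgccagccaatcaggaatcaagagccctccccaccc
Rpa2: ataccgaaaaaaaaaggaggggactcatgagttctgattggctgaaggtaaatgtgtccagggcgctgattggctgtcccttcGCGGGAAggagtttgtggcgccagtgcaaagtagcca
Mcm6: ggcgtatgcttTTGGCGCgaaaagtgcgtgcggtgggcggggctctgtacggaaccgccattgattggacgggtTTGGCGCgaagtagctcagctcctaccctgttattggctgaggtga
These windows lie at chr7:102441575-102441694 (Rrm1, plus strand), chr17:56303217-56303336 (Uhrf1, plus), chr4:132768240-132768359 (Rpa2, plus) and chr1:128359706-128359825 (Mcm6, minus). Either form was found in 17 of the 28 replication genes, 3 of the 28 mitosis genes and 11.7% of all genes. Rrm1, the large subunit of ribonucleotide reductase, differed by -1.12 ± 0.28 (limma adjusted p = 0.0313), Uhrf1, which guides maintenance methylation of DNA, by -1.73 ± 0.32 (0.00404) and Rpa2, a single-strand DNA binder, by -1.54 ± 0.30 (0.00624). Of these 3, Uhrf1 alone stayed called with the array-set term and with the 4 arrays alone, where Rrm1 and Rpa2 did not (adjusted p = 0.0717 and 0.0555). Rrm1 lost the call with averaged probe sets as well (-0.87, adjusted p = 0.392). Each of the 3 lost it in some fit without 1 array, Uhrf1 without SL non-LRC 2. In those fits the differences were -0.73 to -1.505 for Rrm1, -1.25 to -1.84 for Rpa2 and -1.55 to -1.90 for Uhrf1. Matches describe letters in these windows and show no binding.

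Transcripts of 14 basal genes and of 11 basement membrane and receptor genes were lower in GL, while the basal keratins Krt5 and Krt14 gave no call. Of 24 measured basal genes 14 were lower and 1 higher (median -1.11), and of 27 basement membrane and receptor genes 11 were lower and 1 higher (median -0.59); the lists share members, and with the array-set term 11 and 6 were lower and 0 higher, and without the mean-variance trend 6 and 5 were lower. Col17a1, the hemidesmosomal collagen, measured log2 11.56 and 11.91 in GL against 13.52 and 13.30, a difference of -1.67 ± 0.18 (limma adjusted p = 4.16e-05). SL LRC stood at 14.05 and 13.99, further above GL. Col4a1, a collagen of the basement membrane, measured 7.07 and 6.90 in GL against 9.43 and 10.29 (-2.88 ± 0.30, adjusted p = 4.14e-05). A dimmer probe set of Col4a1, above the floor on all 4 arrays, gave -0.95 ± 0.50 without a call. The hemidesmosomal integrin chains Itga6 (-1.03 ± 0.16, adjusted p = 0.00116) and Itgb4 (-1.88 ± 0.26, adjusted p = 0.000497) fell together, with Itga6 at 11.62 and 11.57 in GL and 12.62 and 12.63 in SL non-LRC. These 4 genes stayed called with the term and without any 1 array.

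Cdh13, a cadherin anchored by lipid, differed by -3.31 ± 0.40 (adjusted p = 0.000124), Fgfr2, a growth factor receptor of keratinocytes, by -1.21 ± 0.18 (adjusted p = 0.000983, but -0.75 and 0.0565 with averaged probe sets) and Wnt4, a secreted Wnt ligand, by -1.32 ± 0.21 (adjusted p = 0.00155). A dimmer probe set of Wnt4, above the floor on all 4 arrays, gave -0.64 ± 0.30 without a call. Col7a1, of anchoring fibrils, fell by 2.32 ± 0.38 (adjusted p = 0.00165, and 0.0517 with the array-set term). Cdh3, the P-cadherin, and Lamb1, a laminin chain, went the other way, by 0.95 ± 0.26 and 1.57 ± 0.42 (adjusted p = 0.0443 and 0.041), and both lost the call with the term (0.266 and 0.384), with averaged probe sets (0.377 and 0.229) and in all 4 fits without 1 array. Igfbp2, which binds insulin-like growth factors, measured 6.64 and 5.81 in GL, 9.44 and 10.89 in SL non-LRC and 6.24 and 6.36 in SL LRC, so that GL and SL LRC lay together below SL non-LRC (adjusted p = 0.00312 for GL against SL non-LRC, and 0.0759 without SL non-LRC 2). The keratins Krt5 (14.46 and 14.33 against 14.20 and 14.32) and Krt14 (14.60 and 14.70 against 14.44 and 14.56) and the epidermal regulator Trp63 (13.65 and 13.87 against 13.84 and 13.71) overlapped or differed by 0.15 or less (adjusted p = 0.728, 0.59 and 0.977). Krt15, a keratin of basal and bulge cells, differed by -0.49 ± 0.16 (adjusted p = 0.1). Without GL 1, GL 2, SL non-LRC 1 and SL non-LRC 2 in turn, lower basal calls numbered 11, 12, 11 and 11.

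**Figure D3:**
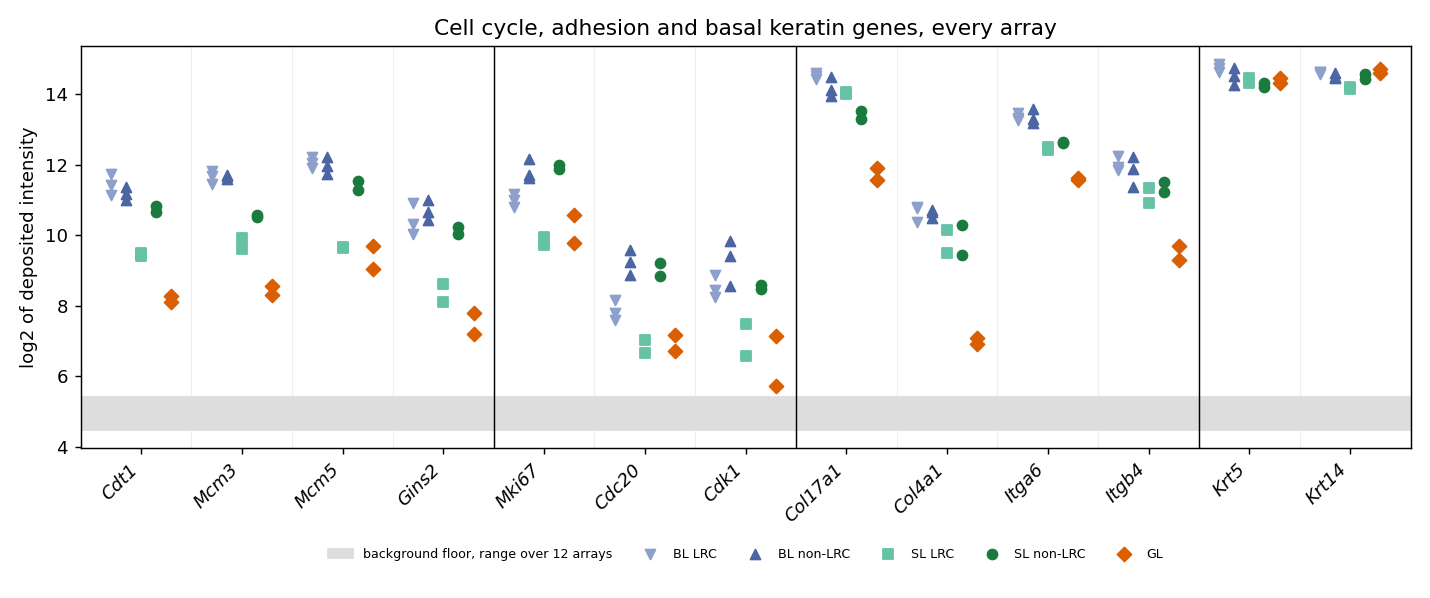
Log2 intensity on all 12 arrays of replication genes, mitosis genes, adhesion genes and the keratins Krt5 and Krt14, separated by vertical lines. GL (orange) lies below SL non-LRC (dark green circles) for every gene left of the keratins, whereas for mitosis genes it lies near SL LRC (light green squares).

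The genes that define the granular layer gave no call between the fractions in the main model. None of the markers Lor, Flg, Casp14, Klk7 and Ivl was called, although all 5 had a higher mean in GL. Lor, the main cornified envelope protein, measured log2 11.76 and 10.29 in GL and 10.15 and 8.16 in SL non-LRC. The lower GL array lay just above the higher SL non-LRC array, and the difference was 1.87 ± 0.64 (limma adjusted p = 0.114). Flg, the filaggrin precursor, measured 9.01 and 8.08 in GL against 4.56 and 5.55, the latter near the floor (3.49 ± 1.04, adjusted p = 0.0672). Casp14, a protease of cornification, measured 11.58 and 12.08 against 11.01 and 11.07, but 12.52 and 12.78 in SL LRC. Klk7, a desquamation protease, measured 13.38 and 12.69 against 12.54 and 11.84, without overlap, and Ivl, involucrin, 10.78 and 9.70 against 10.12 and 9.17, with overlap (adjusted p = 0.136 for Casp14, 0.143 for Klk7 and 0.586 for Ivl). The spinous keratins Krt1 (13.58 and 13.97 against 13.86 and 13.34) and Krt10 (14.49 and 14.37 against 14.41 and 14.32) overlapped as well and changed sign under some settings, Krt1 with the array-set term and Krt10 with median centring. Some settings gave a call: Flg with 16 units added before the log (adjusted p = 0.00195) or the 4 arrays alone (0.0266), Lor without SL non-LRC 1 (0.0382) and Casp14 with the replicate number as a block (0.0235). The name granular therefore rests on how the abbreviation GL is read, not on calls of these markers, and the fraction is named GL here.

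Of 41 measured cornified envelope genes 33 lay above 0 (median 0.62), but calls were limited to 2, both higher. The median was 0.97 without GL 2 and 1.12 over the 31 members left when dim genes were dropped. Lce1d, a late envelope protein, measured log2 8.41 and 6.76 in GL and was below the floor on both SL non-LRC arrays, so it was at least 6.99-fold higher (adjusted p = 0.00595). Its level in SL LRC was 6.49 and 6.66. Csta1, a protease inhibitor of the envelope, differed by 1.94 ± 0.54 (adjusted p = 0.0477, and 0.123 with the array-set term). Both lost the call without GL 1 (0.103 and 0.336) and without SL non-LRC 2 (0.0653 and 0.446), and Csta1 also with averaged probe sets (0.0553). Envelope genes without a call included Rptn (3.04 ± 1.25), Kprp (2.42 ± 1.05), Crct1 (1.95 ± 0.94) and Sprr1a (0.56 ± 0.30).

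The cornified envelope genes leaned one way, mostly without passing, and promoters of 3 without a call are shown. They were picked from the named envelope genes with a match to TGANTCA in the 120 bases before the start. TGANTCA is a loose form of the AP-1 site in which N is any base, and the match in Flg is TGAATCA. The 120 bases are printed on the gene's strand with the match in capitals.
Lor: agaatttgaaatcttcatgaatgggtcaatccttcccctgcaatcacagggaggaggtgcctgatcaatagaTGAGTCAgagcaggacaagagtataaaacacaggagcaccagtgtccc
Ivl: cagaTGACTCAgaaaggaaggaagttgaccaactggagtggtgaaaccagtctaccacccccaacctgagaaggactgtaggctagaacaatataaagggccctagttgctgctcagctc
Flg: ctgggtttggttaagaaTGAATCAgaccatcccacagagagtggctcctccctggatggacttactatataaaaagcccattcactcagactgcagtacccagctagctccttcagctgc
They lie at chr3:92083143-92083262 (Lor, minus strand), chr3:92573736-92573855 (Ivl, minus) and chr3:93273426-93273545 (Flg, plus), in the epidermal differentiation complex. On either strand the motif was found in 14 of the 35 cornified envelope genes with a promoter in the table, 0 of the 28 mitosis genes and 7.54% of all genes. It was found in 0 of the 2 called envelope genes, Lce1d and Csta1.

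Junction, desquamation and crosslinking genes gave few calls. Of 23 desquamation genes 2 were higher: Klk10, a kallikrein protease (2.07 ± 0.56, limma adjusted p = 0.0425), and Lypd3, a surface protein of suprabasal keratinocytes that is also the 1 called of 24 spinous genes (0.91 ± 0.24, adjusted p = 0.0375). Neither stayed called with the array-set term (0.344 and 0.357), nor Klk10 with averaged probe sets (0.0603). Of 15 crosslinking and filaggrin processing genes Tgm3, a transglutaminase, was the 1 call, and it was lower in GL, at 8.47 and 8.51 against 10.20 and 9.80, with SL LRC at 10.88 and 10.93 (-1.51 ± 0.33, adjusted p = 0.0123, and 0.288 with the term). Tgm1, the membrane transglutaminase, differed by 1.62 ± 1.08. Of 13 desmosome genes Dsg1b, a desmoglein, was higher (1.16 ± 0.30, adjusted p = 0.0375, and 0.119 with the term), whereas Dsp (0.38 ± 0.13), Dsg1a (0.41 ± 0.20) and Cdsn (1.36 ± 0.64) did not pass.

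**Figure D4:**
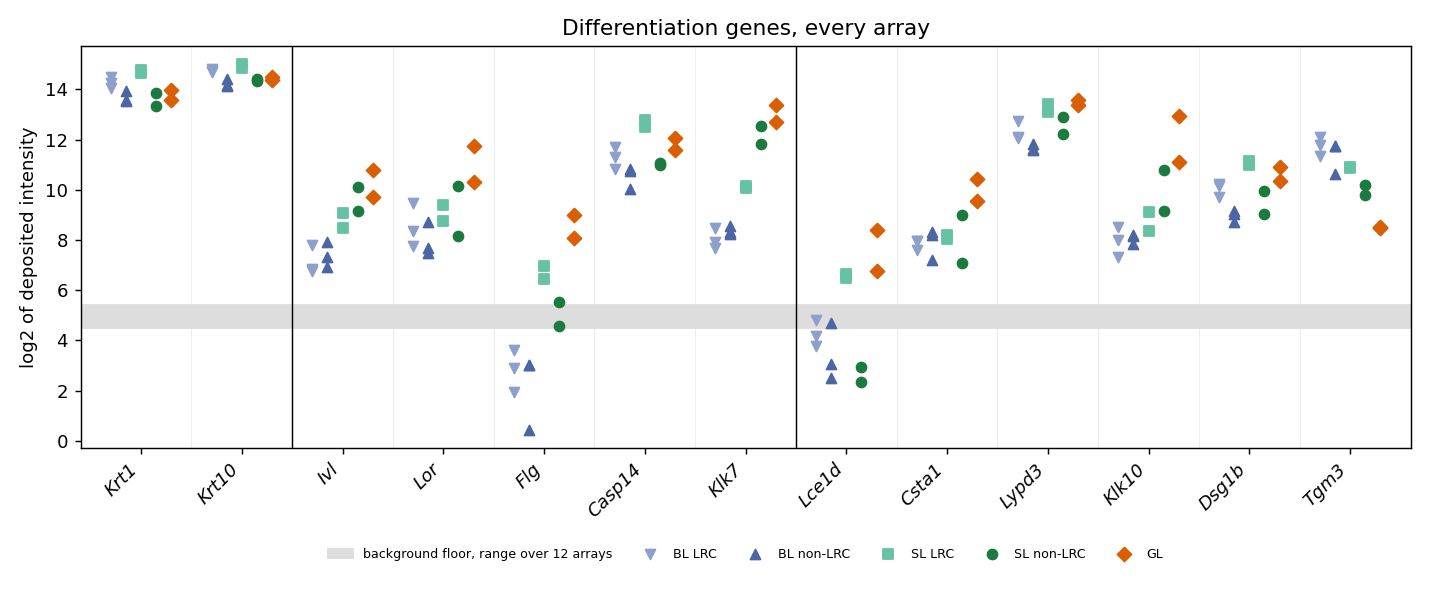
Log2 intensity on all 12 arrays of the spinous keratins (left), the 5 granular markers (middle) and further differentiation genes (right), with the background floor in grey. GL and SL non-LRC overlap for Krt1, Krt10 and Ivl, and Lce1d and Flg are near or below the floor in SL non-LRC.

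The connexins Gjb2 and Gja1 and the keratin Krt16 were higher in GL. Gjb2, a connexin of keratinocytes, measured log2 13.26 and 13.35 in GL, 11.10 and 9.94 in SL non-LRC and 6.91 and 7.47 in SL LRC. The 3 fractions did not overlap, and GL exceeded SL non-LRC by 2.78 ± 0.50 (limma adjusted p = 0.00365, but 0.131 with the array-set term and 0.0807 without SL non-LRC 2). Gja1, the widespread connexin, measured 14.47 and 14.80 against 13.77 and 13.73 (0.88 ± 0.17, adjusted p = 0.00555, and 0.00986 with the term, but 0.0748 without GL 2 and 0.0653 without SL non-LRC 2). They were the 2 calls among 17 tight and gap junction genes. Krt16, a keratin of wounded and companion layer cells, measured 11.25 and 11.53 against 8.89 and 8.61 (2.64 ± 0.37, adjusted p = 0.000596, and 0.0255 with the term). It was 1 of 3 higher among 21 wound and companion genes (median 1.15), with Gjb2 and the protease Mmp9 (4.07 ± 1.02, adjusted p = 0.0287), while Krt6a (1.45 ± 0.48) and Krt75 (3.25 ± 1.08) missed the threshold. With the array-set term Krt16 was the 1 call of this list. With the 4 arrays alone Krt6a and Krt75 passed (adjusted p = 0.00521 and 0.00443), as Krt6a did with averaged probe sets (0.00854).

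Among 16 calcium and S100 genes 4 were higher and 1 lower. S100a1, a calcium-binding protein, measured log2 12.39 and 12.85 in GL against 10.28 and 10.42 (2.27 ± 0.27, limma adjusted p = 0.000122). S100a4, which is expressed by motile and immune cells, was higher on GL 1 than on GL 2. So were the immune lists, and a link was not tested. S100a4 measured 12.95 and 11.74 against 9.73 and 8.80 (3.08 ± 0.40, adjusted p = 0.000293). Both stayed called with the array-set term and without any 1 array. S100a6 (0.67 ± 0.15), the calcium channel subunit Orai1 (1.23 ± 0.27) and S100a10 (-0.53 ± 0.14) were called without the term alone.

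A few hair follicle genes were called higher in GL. Of 20 bulge genes 4 were higher and 0 lower (median 0.80): the transcription factor genes Lhx2, Sox9 and Tbx1 and the growth arrest gene Gas1. Leaving out 1 array at a time gave 1 or 2 higher bulge calls, and without SL non-LRC 2 the median was 0.44. Lhx2 measured log2 12.73 and 12.85 in GL, 10.70 and 10.07 in SL non-LRC and 8.88 and 8.95 in SL LRC, and the first 2 differed by 2.40 ± 0.30 (limma adjusted p = 0.000192, and 0.00724 with the array-set term). Sox9 measured 13.47 and 13.42 against 12.69 and 12.57, a smaller step of 0.82 ± 0.23 (adjusted p = 0.0481, and 0.555 with the term and 0.612 with averaged probe sets). The calls for Gas1 (1.34 ± 0.25) and Tbx1 (1.59 ± 0.43) were also lost with the term (0.143 and 0.323), which leaves Lhx2. The bulge markers Krt24 (7.01 and 7.17 against 7.07 and 4.44), Cd34 (6.60 and 5.76 against 1.50 and 3.96) and Lgr5 (9.53 and 10.32 against 7.14 and 7.59) did not pass. Of 23 hair shaft and inner root sheath genes Hoxc13, a regulator of hair keratins, was the 1 call (2.67 ± 0.47, adjusted p = 0.00302, and 0.0663 with the term), beside a list median of 1.24 (0.76 without GL 2), with Krt25 (1.90 ± 0.63) and Krt71 (1.74 ± 0.68) without a call. Lgr5, Krt25 and Krt71 passed with the 4 arrays alone (adjusted p = 0.0142, 0.0194 and 0.0446), Cd34 with 16 units added before the log (0.0306) and Krt24 without SL non-LRC 1 (0.0271).

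Infundibulum and sebaceous genes gave calls in both directions. Pparg, a regulator of sebocyte lipid metabolism, measured log2 3.39 and 5.01 in GL, 9.0 and 10.26 in SL non-LRC and 3.77 and 5.85 in SL LRC (limma adjusted p = 0.00387 for GL against SL non-LRC, with 1 GL array above the floor; 0.0605 without GL 1 and 0.074 without SL non-LRC 2). Scd1, a fatty acid desaturase, measured 11.68 and 12.02 against 13.47 and 14.18 (-1.97 ± 0.33, adjusted p = 0.00205, and 0.00152 with the array-set term). Lrig1, of the upper follicle, fell by 0.78 ± 0.21 (adjusted p = 0.0393, and 0.243 with the term and 0.081 with averaged probe sets). On the list of 23 infundibulum and sebaceous genes these were the 3 lower calls, beside 3 higher ones, Klk10, Prdm1 and Alox15, with a list median of -0.14 (-0.69 with the term, and -0.21 to -0.070 without 1 array). Alox15, a lipoxygenase, was below the floor on both SL non-LRC arrays and at least 4.33-fold higher in GL (adjusted p = 0.0277, lost in all 4 fits without 1 array). Krt79, the infundibular keratin, measured 14.33 and 14.20 in GL and 14.38 and 14.41 in SL non-LRC (-0.14 ± 0.25), against 13.14 and 12.88 in SL LRC. Gata6, Plet1 and Mgst1, of the same compartments, likewise gave no call against SL non-LRC (adjusted p = 0.502, 0.576 and 0.551).

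Of 39 lipid barrier genes 4 were lower and 0 higher: the fatty acid enzymes Elovl6 (-2.24 ± 0.57), Fa2h (-2.94 ± 0.74) and Far2 (-2.85 ± 0.75) and the lipase activator Abhd5 (-0.98 ± 0.19). Fa2h, which hydroxylates fatty acids of ceramides, measured log2 8.66 and 8.54 in GL, 10.86 and 12.22 in SL non-LRC and 7.52 and 8.76 in SL LRC. A dimmer probe set of Elovl6 gave 0.42 ± 0.62. SL non-LRC was the high fraction for Fa2h, and its call held with the array-set term (adjusted p = 0.033) but not without GL 1, GL 2 or SL non-LRC 2 (0.129 to 0.276). The median of the list was 0.20, -0.08 with the term, and 0.031 to 0.44 without 1 array. With averaged probe sets Abhd5 turned to 0.12, Elovl6 and Far2 lost the call (adjusted p = 0.225 and 0.0672), and Fa2h was the 1 lower call. The acylceramide genes Alox12b (0.55 ± 0.96), Aloxe3 (0.64 ± 0.54) and Abca12 (0.81 ± 0.64) did not pass. Of 31 cholesterol and fatty acid genes 4 were lower and 0 higher, Scd1, Elovl6 and the sterol enzymes Hmgcs1 (-0.99 ± 0.20) and Lss (-1.36 ± 0.37), and all 4 lost the call without SL non-LRC 2 (adjusted p = 0.0523 to 0.362), and all but Scd1 with averaged probe sets.

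Of 32 oxidative phosphorylation genes 4 were lower (Ndufb3, Atp5b, Sdhc and Cox4i1), with 30 of 32 below 0 and a median of -0.40, and none of the 4 kept its call with the array-set term. The median of this list was -0.078 for GL minus SL LRC. Its summed signal was 170274 and 179749 units in GL, 221499 and 233231 in SL non-LRC and 181676 and 182694 in SL LRC. Sdhc, of complex II, differed by -0.73 ± 0.17 (limma adjusted p = 0.0176) and Cox4i1, of complex IV, by -0.58 ± 0.14 (adjusted p = 0.0218). The next 3 lists gave few calls, beside 1.98% of all genes higher and 2.83% lower. Of 34 differentiation factors 2 were higher, Ets1 (2.15 ± 0.45), a factor also abundant in lymphocytes, and Prdm1 (2.39 ± 0.62), and both lost the call with the term. Klf4 (0.34 ± 0.20) and Grhl3 (0.28 ± 0.31), regulators of barrier formation, did not pass, and the sign for Klf4 turned with the term. Rnase4 and Ang, ribonucleases from 1 shared locus, were the 2 higher of 25 antimicrobial genes, Rnase4 by 0.85 ± 0.20 (adjusted p = 0.0216), and with the term Ang alone of the pair was called. Of 27 immediate early genes Ier5 was higher (1.58 ± 0.29, adjusted p = 0.00384) and Ptgs2, the inducible cyclooxygenase, lower by at least 2.39-fold (adjusted p = 0.00932). Without GL 1 both lost the call (0.0659 and 0.0932), as Ier5 did without SL non-LRC 2 (0.0807) and Ptgs2 without SL non-LRC 1 (0.109) and with averaged probe sets (0.146).

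**Figure D5:**
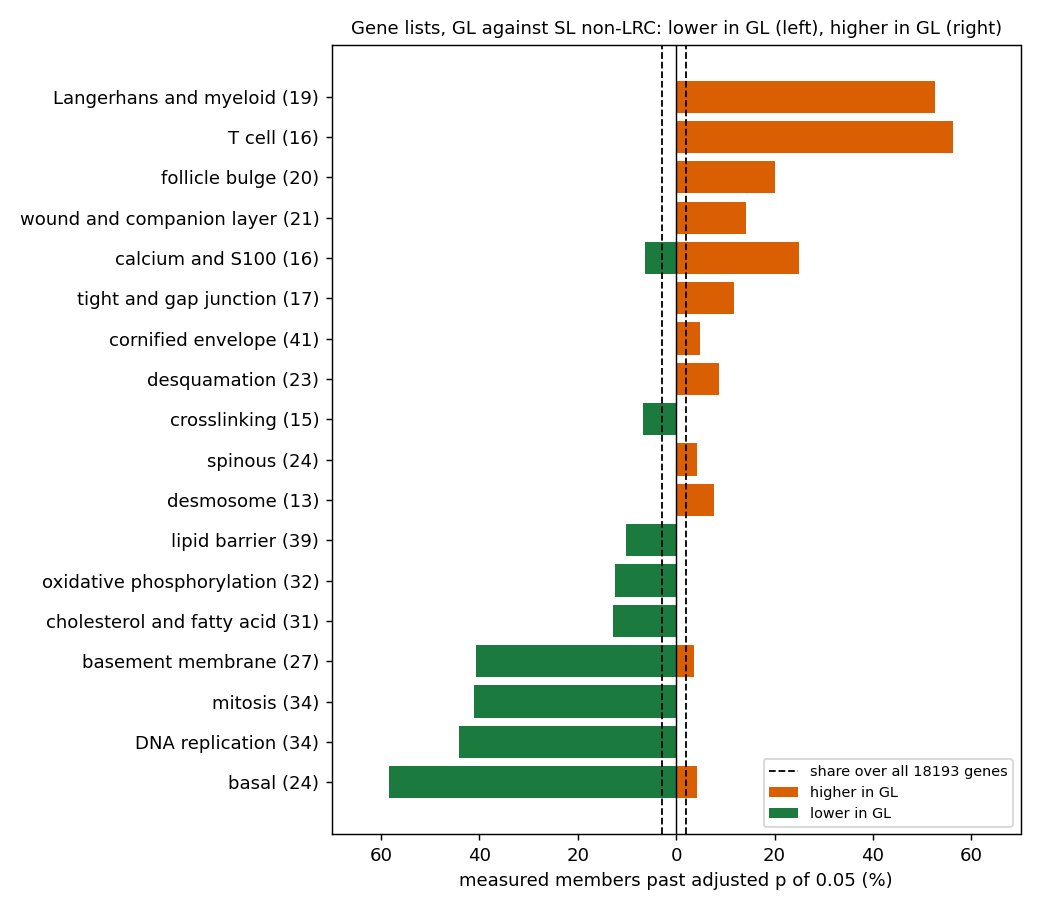
Share of the measured members of 18 gene lists (number measured in brackets) called lower in GL (green, to the left) or higher (orange, to the right); dashed lines mark the shares over all genes, 2.83% and 1.98%. T cell, Langerhans and myeloid, basal, DNA replication, mitosis and basement membrane lists stand furthest from the dashed lines.

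The 12 top genes by log2 difference among the called increases with both GL arrays above the floor were mostly below the floor in SL non-LRC, so a bound is given for these and their order is not measured. Stac2, an adaptor of calcium channels, measured log2 8.44 and 7.98 in GL and was below the floor on both SL non-LRC arrays, so it was at least 10.8-fold higher (limma adjusted p = 0.00595). Gpr171, a receptor of lymphocytes, was at least 15.5-fold higher (adjusted p = 0.00666), Ptpn22, a phosphatase of lymphocyte signalling, at least 9.95-fold (adjusted p = 0.000596) and Sit1, a T cell adaptor, at least 8.80-fold (adjusted p = 0.0113). Ltc4s, of leukotriene synthesis, was at least 10.5-fold higher and Clnk, an adaptor of immune cells, at least 5.83-fold. Cyp27b1, which activates vitamin D, was at least 6.05-fold higher, Amdhd1 at least 2.93-fold (adjusted p = 0.309 with averaged probe sets), Hepacam2 at least 2.51-fold and Dgkk at least 1.56-fold. Tbc1d30, at 10.42 and 9.77 in GL against 5.71 and 1.80, gives no bound, since 1 SL non-LRC array exceeded the floor. S100b, a marker of several dendritic and neural cells, was at least 23.6-fold higher, with 9.40 and 9.28 in GL. Of these 12, Ptpn22 alone stayed called in each fit without 1 array, and with the array-set term Stac2, Ptpn22 and Sit1 stayed called.

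The 12 top genes by log2 difference among the called decreases were chosen the same way, and since GL was near or below the floor for most of them, their order is not measured either. Avpr1a, a vasopressin receptor, measured log2 4.74 and 4.87 in GL, 11.82 and 12.65 in SL non-LRC and 6.33 and 6.78 in SL LRC (limma adjusted p = 0.000268, and 0.012 with the array-set term). Lpl, lipoprotein lipase, measured 3.96 and 5.69 in GL against 9.99 and 11.19 (adjusted p = 4.74e-05), and Cd36, a fatty acid carrier, 5.31 and 2.40 against 8.16 and 10.44 (adjusted p = 0.0359, lost in all 4 fits without 1 array and with averaged probe sets). Bche, butyrylcholinesterase, was below the floor in GL and at least 19.3-fold lower (adjusted p = 0.00268). The zinc finger gene Zfp599 was at least 1.89-fold lower, Olfml2a at least 4.37-fold, the bicarbonate transporter Slc4a8 at least 6.14-fold and 9430083A17Rik at least 6.86-fold. A probe set of Slc4a8 above the floor on all 4 arrays gave -0.50 ± 0.99 and its other 3 gave -0.35 to -1.90, none called, and with all averaged the gene lost the call (adjusted p = 0.392). Clmp, a junctional adhesion molecule, was above the floor on both sides and fell by 4.67 ± 0.83 (adjusted p = 0.00329, and 0.074 without SL non-LRC 2). Cdo1, of cysteine metabolism, and the chemokine Ccl2 complete the 12 with Pparg, and in both 1 GL array was above the floor. Ackr3, a scavenging chemokine receptor named after its values were seen, measured 5.69 and 5.56 in GL, 9.97 and 9.79 in SL non-LRC and 9.63 and 9.12 in SL LRC, with both spinous fractions high. Its difference of -4.26 ± 0.31 had an adjusted p of 8.27e-07, and 4.48e-05 with the array-set term.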

How the data were processed

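RNA of sorted mouse keratinocyte fractions (5 ng per sample, amplified with a NuGEN whole-transcriptome kit, per the labels) was hybridised to Affymetrix mouse arrays. The authors deposited linear intensity values, scaled to a 2% trimmed mean of 500.0 on each array as recomputed here; the summarisation software is not given in the sources used here. Log2 was taken with nothing added. Of 45101 probe sets, 34945 name 1 gene, and for each of 18193 genes the probe set of highest mean over the 12 arrays was kept. Depth does not apply to arrays; their number limits the precision, and the smallest two-sided exact permutation p for 2 against 2 is 0.333. The floor is, per array, the 95th percentile of 27 bacterial probe sets; "at least" folds set the bright group's mean against that floor or the dim value where it is higher.

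Differences came from limma 3.58.1 (R 4.3.3), with 5 group means over 12 arrays, moderated with a mean-variance trend, two-sided, adjusted over all genes by Benjamini-Hochberg; simulated data with known changes were used to test the scripts. The alternative adds a term for the BioB level. Genes are named by a rule: in each direction the 12 largest called changes whose arrays do not overlap, per list (of 28) at most 6 genes with the lowest p, and set markers of layers; Ackr3, the other members of lists and the markers of other cell types were named after their values were seen. The members and lists were chosen with earlier results of these data known. Figures used Python 3.11.15 and matplotlib 3.10.9.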

Additional observations from a re-analysis of the deposited data

How the results depend on the processing

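The 875 calls (360 higher, 515 lower) depend on the spread model and on single arrays more than on scaling. With the array-set term 367 genes were called (155 higher, 212 lower), without the mean-variance trend 294 (122 higher, 172 lower), and with the 4 arrays alone 704, of them 321 lower and 383 higher. Leaving out 1 array at a time gave 302 to 526 calls (93 to 234 higher and 199 to 347 lower), and 143 to 301 with the array-set term. Median centring gave 978 calls, quantile normalisation 880, an offset of 16 units 1078 (539 each way), leaving out dim genes 971 of 13807, averaging probe sets 765, and the replicate block 1025, each within 1.5 times the main count. A like count need not mean like genes: with averaged probe sets 594 of the 875 calls were shared and 281 lost, and with the 4 arrays alone 552 were shared. Of the 102 called genes named in the text, 56 lost the call without the trend, 51 with the array-set term, 21 with averaged probe sets, 13 with the 4 arrays alone, 8 with median centring, 3 with quantiles, 2 with dim genes left out and 1 with the offset. The labels do not say whether the replicate numbers pair the samples. Replicate differences of the 2 fractions correlated at 0.013 across genes, which cannot decide it, since a pairing may touch some genes only. The replicate block lowered the SE of Cd3g from 0.46 to 0.31 and raised that of Fcer1g from 0.53 to 0.54. It ended no call of a named gene. All 875 genes kept their sign under each of these settings except averaging of probe sets (861) and, for 3 genes not tested, leaving out dim genes. With the 4 arrays alone, no trend, the replicate block or dim genes left out, the difference equals the main one, so signs were fixed. A fit without 1 array also cannot turn a gene whose arrays do not overlap between the fractions. Among the genes named in the text, signs turned mostly for genes that were not called. With averaged probe sets the named genes that turned were Trp63 (0.40), Cd8a (1.09) and Abhd5 (0.12), the last a called gene, and other called genes not named here turned too. With the array-set term they were Trp63 (0.11), Krt1 (-0.066), Klf4 (-0.0048) and Alox12b (-1.80), and Krt10 turned with median centring (-0.037) and quantiles (-0.045). Without 1 array the differences ranged from -0.13 to 0.092 for Trp63, -0.079 to 0.43 for Krt1 and -1.61 to 0.37 for Cd4. The cause of these turns was not tested.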
